A study of Mus musculus with 14 samples.

Results

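The 38 genes described here encode translation initiation factors and the inhibitors of one of them. They were taken by symbol from a list, and the Ensembl identifier of each was found in the count table of brown adipose tissue, so that 38 of the 55471 genes of the table are covered. All 38 passed the filter on low counts that left 15949 genes for testing.

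Translation of most messenger RNAs begins when the cap-binding protein eIF4E, the scaffold eIF4G and the helicase eIF4A, together called eIF4F, load a small ribosomal subunit that carries eIF3 and the initiator transfer RNA bound to eIF2. The eIF4E-binding proteins (4E-BPs) hold eIF4E away from eIF4G, and the exchange factor eIF2B recharges eIF2 with GTP. Both steps are classical control points, the first under mTOR and the second under kinases that phosphorylate eIF2. Brown adipose tissue makes heat and builds up its thermogenic proteins when an animal is cold.

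Male mice 10 weeks old, either wild type (WT) or lacking CLSTN3B in adipocytes (AdC3KO), were all kept at thermoneutrality (30 °C) for 2 weeks. Brown adipose tissue was sequenced from mice left at 30 °C, with 3 WT and 3 AdC3KO libraries, and from mice then kept at 4 °C for 6 h, with 4 libraries of each genotype. The promoter that drives the adipocyte deletion and the strain were not found in the labels, and the deletion is limited to adipocytes while the tissue holds other cells too. Separate animals per library are not stated in the labels, and every p-value therefore rests on the variation among the libraries, which may be technical.

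The depth was 19.9 M to 29.0 M counts in genes per library (M, 1000000 counts). Levels are given as counts per M (CPM) after TMM scaling, and a log2 fold change is followed by its standard error (SE). Clstn3, the targeted locus, did not overlap between genotypes, with 15.8 ± 1.31 against 207 ± 23.2 CPM at 30 °C (SD, n = 3 each) and 65.8 ± 11.9 against 1109.6 ± 97.4 CPM at 4 °C (SD, n = 4 each), log2 fold changes of -3.71 and -4.08. All 10 brown adipocyte markers, among them Ucp1, Cidea and Adipoq, were detected. Summed skeletal muscle markers reached 246 CPM in 1 WT library at 30 °C and 462 CPM in 1 AdC3KO library at 4 °C, against 43.5 to 129.8 CPM in the others. Summed macrophage markers reached 447 CPM in 1 WT library and 302 CPM in 1 AdC3KO library at 4 °C, against 126 to 212 CPM in the others.

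Cold raised the transcripts of most initiation factors in both genotypes and lowered those of the main eIF4E inhibitors. In WT, 32 of the 38 were called higher and 2 lower at 4 °C (adjusted p below 0.05), where 30.6% of all tested genes were called higher and 30.8% lower. In AdC3KO the counts were again 32 and 2, where 31.0% of all tested genes were called higher and 32.1% lower. The same 32 genes were higher and the same 2, Eif4ebp1 and Eif4ebp2, were lower in both genotypes, against 27.9% and 27.7% of all tested genes called higher and lower in both. The median log2 fold change of the 38 was 0.69 in WT and 0.74 in AdC3KO, and that of all tested genes was -0.03 and -0.06. The highest adjusted p among these calls was 0.00243 by edgeR, for Eif4h in AdC3KO. A rise of at least 2-fold was called for 11 of the 38 in WT and for 11 in AdC3KO, with Eif2s1 reaching it in WT alone and Eif3g in AdC3KO alone, and no called fall was that large. Of all 15949 tested genes, 2226 in WT and 2241 in AdC3KO had a called rise of that size. Called falls of that size numbered 2923 in WT and 3177 in AdC3KO. The 4 genes called in neither genotype were Eif3f, Eif3l, Eif4e3 and Eif4ebp3.

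**Figure D1:**
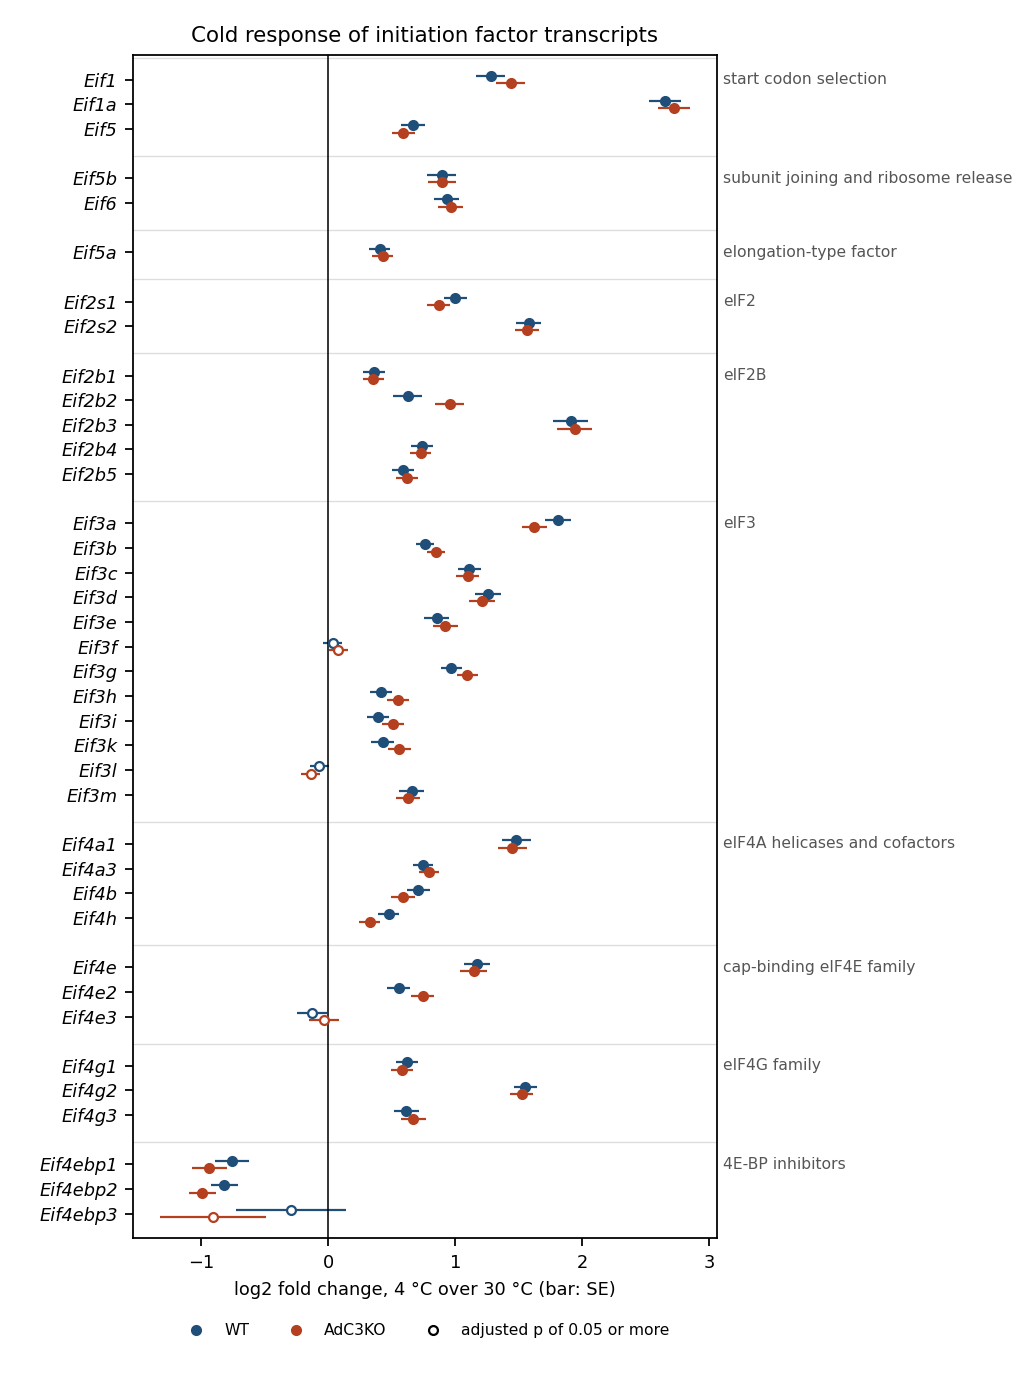
Log2 fold change at 4 °C over 30 °C (x axis) of the 38 genes grouped by role (y axis), with WT in blue and AdC3KO in red, bars for the SE and open points where the adjusted p is 0.05 or more. Points lie right of 0 for 32 called genes, from 0.33 for Eif4h in AdC3KO to 2.72 for Eif1a in AdC3KO, while Eif4ebp1 and Eif4ebp2 lie left of 0 in both genotypes.

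The separation between temperatures held library by library in TMM-scaled CPM. The scaling factors were themselves apart, at 1.11 to 1.21 at 30 °C and 0.822 to 0.954 at 4 °C, so this separation is not independent of the scaling. For the 32 risen genes all 8 libraries at 4 °C lay above all 6 at 30 °C, a pattern that 25.2% of all tested genes showed. For Eif4ebp1 and Eif4ebp2 all 8 lay below all 6, as for 24.7% of all tested genes. Summed over the 38 genes, the level was 4316 to 4564 CPM in WT and 4444 to 4575 CPM in AdC3KO at 30 °C, and 7896 to 8882 CPM and 8189 to 8511 CPM at 4 °C. The scaling affects the split. Under upper-quartile scaling, which moved the median of all genes to -0.27 in WT and -0.29 in AdC3KO, 27 rose and 5 fell in WT and 29 rose and 4 fell in AdC3KO. By that scaling 22.8% of all tested genes were called higher and 40.2% lower in WT, and 23.4% and 41% in AdC3KO. Under library totals, with medians of -0.38 and -0.45, 25 rose and 5 fell in WT and 24 rose and 6 fell in AdC3KO. By those totals 19.4% of all tested genes were called higher and 44% lower in WT, and 18.7% and 46.4% in AdC3KO. Of all genes called, the higher share went from 49.9% to 36.2% and 30.6% in WT and from 49.1% to 36.4% and 28.8% in AdC3KO under these scalings.

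Markers of several cell types also moved with temperature. All 5 endothelial markers were detected, 4 were called higher and 1 lower at 4 °C in each genotype, and their sum was 515 to 699.5 and 525 to 588 CPM at 30 °C and 1138 to 1294 and 1216 to 1512 CPM at 4 °C (WT first). Red blood cell markers, all 5 detected, were called higher at 4 °C for 4 of 5 genes in WT and 5 of 5 in AdC3KO, and summed to 276 to 358 and 245 to 385 CPM at 30 °C and 326 to 599 and 496 to 622 CPM at 4 °C. Of the 6 macrophage markers, 3 in WT and 2 in AdC3KO were called higher at 4 °C and none lower, and their sum was 126 to 162 and 131 to 191 CPM at 30 °C and 169 to 447 and 139 to 302 CPM at 4 °C. Of the 10 brown adipocyte markers, 5 were called higher in each genotype and 2 in WT and 1 in AdC3KO lower, and their sum was 6764 to 7986 and 6593 to 8670.1 CPM at 30 °C and 19364 to 23781 and 21100.2 to 27174 CPM at 4 °C. In each genotype 1 of the 10 muscle markers was called lower and none higher. The part of these cells in the rise of the initiation factors was not tested, and in whole tissue a change in the number of cells of a type cannot be told apart from a change in RNA per cell. Without the 5 libraries richest in muscle transcripts, the median log2 fold change of the 38 was 0.68 in WT and 0.68 in AdC3KO. That of all tested genes was then -0.01 and -0.05. In AdC3KO Eif2b1, Eif4h and Eif5a lost their call, at 0.25, 0.28 and 0.36 against 0.35, 0.33 and 0.43 with all libraries. That fit keeps 1 AdC3KO library at 30 °C, which is assumed to vary like the other groups. Without the 2 libraries rich in macrophage transcripts, 32 of the 38 were called higher in each genotype, where 30.6% of all tested genes were in WT and 32.1% in AdC3KO. Both alternatives were chosen after seeing the data.

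Promoter sequence was available for 28 of the 38 genes, as windows of 250 bases before to 50 after the transcription start from RefSeq on GRCm38.p6. The palindrome CACGTG, an E-box that basic helix-loop-helix factors can bind, stood in 8 of the 28 (28.6%), in Eif4e, Eif4a1, Eif4g1, Eif4h, Eif5a, Eif3a, Eif3f and Eif3k. The same letters stood in 8.09% of all 27025 genes with a window and in 11.3% of the 11302 tested genes with one. Both strands were searched, no match of 1 motif named here overlapped a match of another, and a match is a description of letters, not of a bound site. The stretches below are shown because they include the promoters of the 3 parts of eIF4F, the cap-binding protein, its helicase and its scaffold. The E-box is in capitals, 5′ to 3′ on the strand of the gene.

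Eif4e, distal, chr3:138527028-138527057, plus strand: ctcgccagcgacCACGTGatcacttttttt
Eif4e, proximal, chr3:138527192-138527221, plus strand: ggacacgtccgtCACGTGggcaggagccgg
Eif4a1, chr11:69672595-69672624, minus strand: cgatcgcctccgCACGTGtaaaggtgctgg
Eif4g1, chr16:20672661-20672690, plus strand: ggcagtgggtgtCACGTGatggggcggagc
Eif4h, chr5:134639488-134639517, minus strand: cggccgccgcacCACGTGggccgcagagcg
Eif5a, chr11:69921443-69921472, minus strand: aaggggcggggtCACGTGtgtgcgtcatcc
Eif3k, chr7:28981915-28981944, minus strand: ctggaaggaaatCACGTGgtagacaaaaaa
Eif3f, chr7:108934335-108934364, plus strand: caagatatgattCACGTGgtataaatttag

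Of the 25 risen genes with a window, 7 (28.0%) held the E-box, and so did Eif3f, which was not called. The ETS letters CCGGAAG stood in 10 of the 28 windows (35.7%), against 9.93% of all genes and 18.8% of tested genes. The window of Eif4ebp2, which fell in the cold, held no CACGTG and 1 ETS match, shown in capitals as the other strand's reading.

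Eif4ebp2, chr10:61452776-61452805, minus strand: cgccttcgaccgCTTCCGGtagtcatcgtt

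The letters TGACGTCA (cyclic AMP response element), TTGCATCA (C/EBP-ATF response element) and TCAAGGTCA (ERR element) stood in 0 of the 28 windows, against 2.03%, 1.03% and 0.466% of all genes and 3.42%, 0.734% and 0.327% of tested genes. AAGATGGCG, the YY1 letters, stood in 1 window, that of Eif4e (3.57%), against 1.64% of all genes and 3.23% of tested genes. No promoter was matched for Eif1a, Eif6, Eif2b3, Eif3e, Eif3h, Eif3i, Eif4e3, Eif4g2, Eif4ebp1 and Eif4ebp3.

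All 3 factors of start codon selection rose, and Eif1a had the largest fold change of the 38 in both genotypes. It encodes eIF1A, which with eIF1 keeps the scanning ribosome open until a start codon is met. The related gene Eif1ax is not one of the 38, and the values here are those of Eif1a alone. A protein-coding gene, Gm8332, matches Eif1a over 434 bases at 95.16% identity. The level of Eif1a was 43.0, 37.8 and 36.3 CPM in the WT and 35.4, 35.4 and 45.3 CPM in the AdC3KO libraries at 30 °C, and 243, 259.6, 245 and 233 CPM in WT and 273, 245, 210.1 and 292 CPM in AdC3KO at 4 °C. The lowest library at 4 °C was more than 4 times the highest at 30 °C, so the temperatures did not overlap, while the genotypes did at each temperature. The rise was 6.28-fold in WT, a log2 fold change of 2.65 (SE 0.13, adjusted p = 1.53e-10), and 6.60-fold in AdC3KO, at 2.72 (SE 0.13, adjusted p = 1.12e-10). Eif1 rose with log2 fold changes of 1.28 in WT and 1.44 in AdC3KO. Eif5, the GTPase activator of eIF2, rose by 0.67 and 0.59 on the same scale.

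Both factors of subunit joining rose. Eif5b, the GTPase that joins the large subunit, rose by 0.89 in WT and 0.89 in AdC3KO on the log2 scale. Part of its exons, 16.9% of bases, overlaps Rev1 on the other strand, and the strand setting of the counting is not given in the sources used here. Eif6, which keeps free large subunits apart from small ones, rose by 0.93 and 0.96. Eif5a, now known to act mainly in elongation and termination, rose by 0.41 and 0.43, and its call was lost under upper-quartile scaling and library totals.

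**Figure D2:**
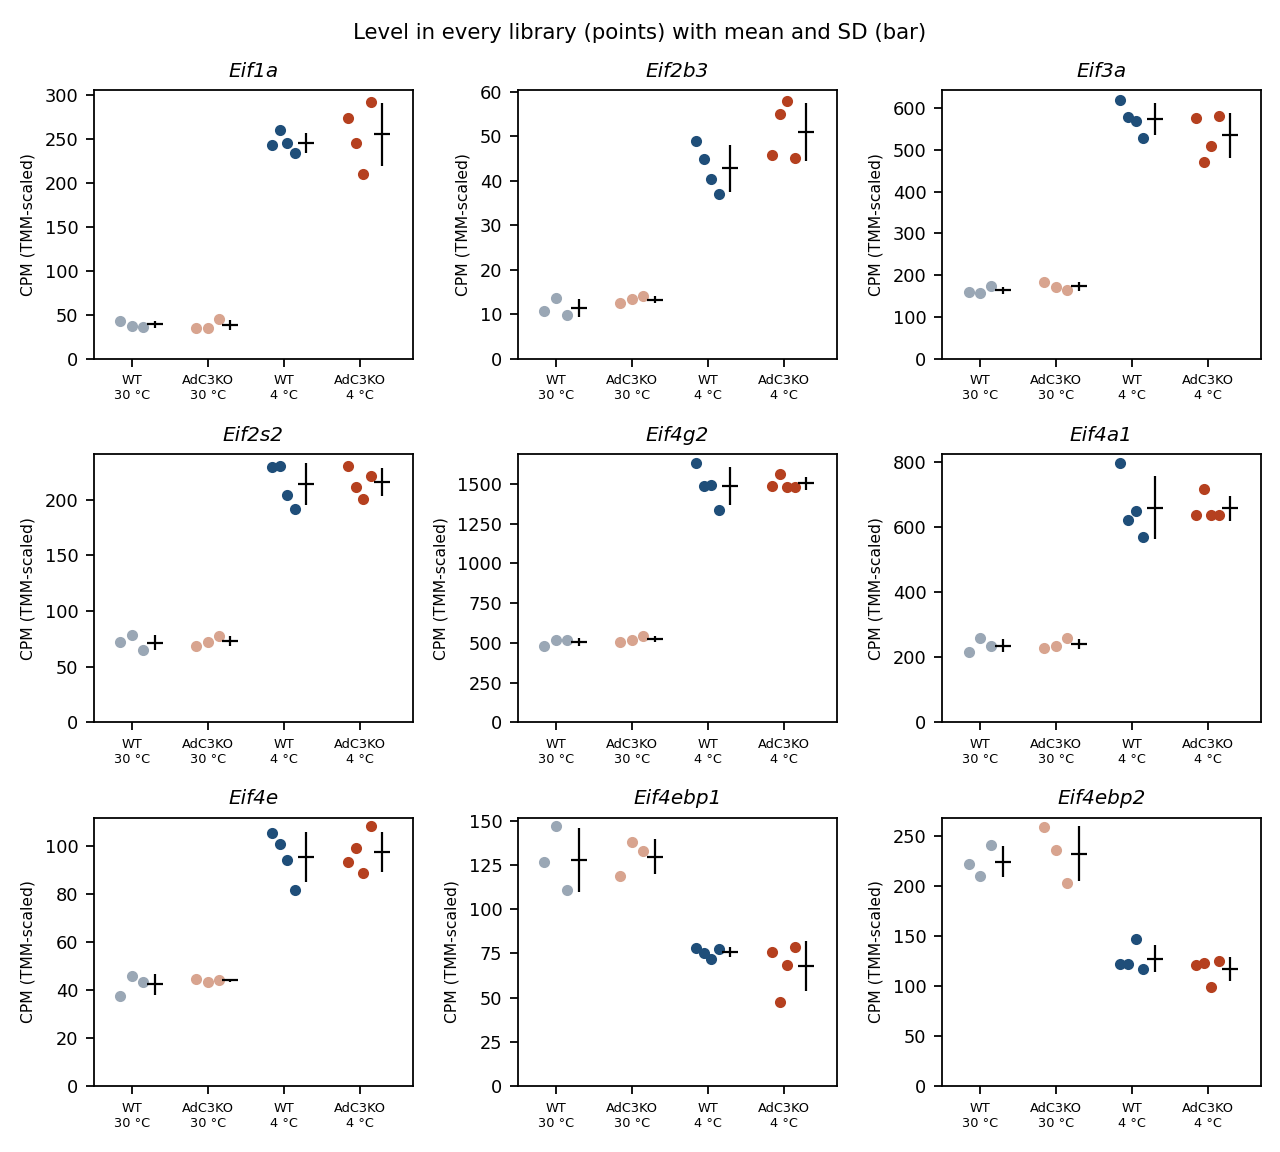
Level in CPM (y axis, from 0) of 9 genes in each of the 14 libraries by genotype and temperature (x axis), with the mean and SD beside the points. In all 9 panels the libraries at 4 °C and 30 °C do not overlap, and the 2 genotypes overlap at each temperature.

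Both listed subunits of eIF2 rose. Eif2s2, its beta subunit, was 71.9, 78.4 and 64.7 CPM in WT and 68.5, 72.5 and 77.8 CPM in AdC3KO at 30 °C, and 229, 230.0, 204 and 192 CPM in WT and 231, 212, 201 and 221 CPM in AdC3KO at 4 °C. The temperatures were apart in every library, and the log2 fold changes were 1.58 (SE 0.10, adjusted p = 1.5e-09) in WT and 1.57 (SE 0.10, adjusted p = 1.51e-09) in AdC3KO. Eif2s1, the alpha subunit that stress kinases phosphorylate, rose from 41.0, 44.2 and 40.9 CPM to 96.6, 82.6, 81.7 and 75.9 CPM in WT, and by 0.87 on the log2 scale in AdC3KO.

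All 5 subunits of eIF2B rose, but unevenly. Eif2b3 (ENSMUSG00000028683, a protein-coding gene at 117019402 to 117087306 of chromosome 4, plus strand, on GRCm38) encodes the gamma subunit of the catalytic subcomplex. Its level was 10.6, 13.6 and 9.92 CPM in WT and 12.4, 13.3 and 14.1 CPM in AdC3KO at 30 °C, and 49.0, 44.9, 40.5 and 36.9 CPM in WT and 45.9, 55.1, 57.9 and 45.0 CPM in AdC3KO at 4 °C. No library overlapped between temperatures, and the log2 fold changes were 1.91 (SE 0.14, adjusted p = 9.03e-09) in WT and 1.94 (SE 0.14, adjusted p = 6.32e-09) in AdC3KO. The other 4 rose less, Eif2b4 by 0.74 and 0.73, Eif2b2 by 0.63 and 0.96, Eif2b5, the catalytic epsilon subunit, by 0.59 and 0.62, and Eif2b1 by 0.36 and 0.35 on the log2 scale (WT first). The call of Eif2b1 was lost under both other scalings, where it turned sign in AdC3KO under library totals, and without the filter.

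Eif2b3 was also the least abundant of the 5 per length. In CPM per kilobase (kb) of exon it stood at 1.75 ± 0.300 in WT at 30 °C (SD, n = 3), when Eif2b5, the most abundant, stood at 16.7 ± 1.62. The ratio of the highest to the lowest subunit level per kb was 9.12, 8.36 and 11.8 in the WT and 9.27, 8.68 and 8.15 in the AdC3KO libraries at 30 °C, and 3.54, 3.89, 3.73 and 4.29 in WT and 4.12, 3.17, 2.96 and 3.85 in AdC3KO at 4 °C. Every ratio at 4 °C was below every ratio at 30 °C, and this measure does not depend on library scaling. With the length of the longest transcript the mean ratios were 5.72 and 5.12 at 30 °C and 2.38 and 2.20 at 4 °C (WT first), lower in size and in the same order.

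**Figure D3:**
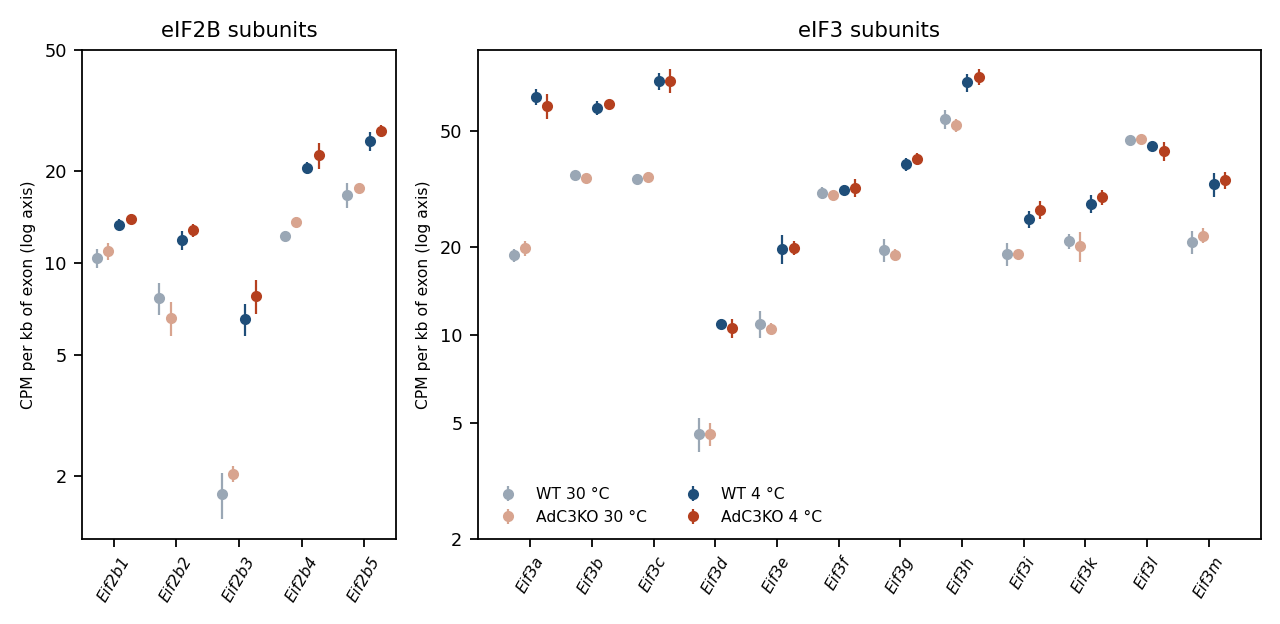
Level per kb of exon (y axis, log scale, CPM per kb) of the 5 eIF2B and 12 eIF3 subunits (x axis) in the 4 groups, with points for means and bars for the SD. Eif2b3 moves from 1.75 to 6.57 in WT, nearer to the other eIF2B subunits, while Eif3f and Eif3l are the 2 eIF3 subunits not called.

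The eIF3 complex, a scaffold of the small subunit, had 12 listed subunits, of which 10 rose and 2 were not called in either genotype. Eif3a, its largest subunit, was 159.8, 158 and 173 CPM in WT and 185, 172 and 164 CPM in AdC3KO at 30 °C, and 619, 579, 568 and 528 CPM in WT and 576, 471, 510.1 and 580.5 CPM in AdC3KO at 4 °C. All libraries at 4 °C were well above those at 30 °C, and the log2 fold changes were 1.81 (SE 0.10, adjusted p = 5.55e-10) in WT and 1.62 (SE 0.10, adjusted p = 1.36e-09) in AdC3KO. Eif3d rose by 1.26 and 1.21, Eif3c by 1.11 and 1.10, and Eif3g by 0.97 and 1.10 (WT first). Of the exon bases of Eif3d, 43.3% overlap Gm17638 on the other strand, so its level is uncertain. Eif3e, Eif3b and Eif3m rose by between 0.63 and 0.92, and Eif3h, Eif3i and Eif3k by between 0.40 and 0.56. The calls of Eif3h, Eif3i and Eif3k were lost in WT under upper-quartile scaling and in both genotypes under library totals.

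Eif3f and Eif3l, also subunits of the complex, were not called. Eif3f was 88.8 ± 4.09 CPM at 30 °C (SD, n = 3) and 91.0 ± 3.55 CPM at 4 °C (SD, n = 4) in WT, and 87.5 ± 2.04 and 92.6 ± 6.27 CPM in AdC3KO. Its log2 fold changes were 0.04 (SE 0.07, adjusted p = 0.691) in WT and 0.08 (SE 0.07, adjusted p = 0.351) in AdC3KO, and the sign turned under other scalings and filters. Under upper-quartile scaling Eif3f was called lower in WT (-0.21, adjusted p = 0.0211 by edgeR). Under library totals it was called lower in WT (-0.32, adjusted p = 0.00219) and in AdC3KO (-0.31, adjusted p = 0.00234). Eif3l was 170.5 ± 3.35 and 163 ± 1.38 CPM in WT and 171 ± 2.77 and 156 ± 11.9 CPM in AdC3KO, with log2 fold changes of -0.07 (SE 0.07, adjusted p = 0.439) and -0.14 (SE 0.07, adjusted p = 0.116). Under upper-quartile scaling, library totals or the filter at 5 CPM, Eif3l was called lower in both genotypes. The median level of the 12 subunits per kb was 1.70-fold higher at 4 °C in WT and 1.71-fold higher in AdC3KO. The ratio of the highest to the lowest subunit level per kb was 12.2 ± 1.53 in WT and 11.6 ± 0.780 in AdC3KO at 30 °C (SD, n = 3 each), and 7.15 ± 0.386 and 7.44 ± 0.164 at 4 °C (SD, n = 4 each).

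Among the helicases, Eif4a1 rose most. It encodes eIF4A1, which unwinds the leader of the messenger RNA. Its level was 217, 259 and 235 CPM in WT and 231, 234 and 259 CPM in AdC3KO at 30 °C, and 797, 623, 649 and 571 CPM in WT and 639, 717, 639 and 639.6 CPM in AdC3KO at 4 °C. The temperatures were fully apart, with log2 fold changes of 1.48 (SE 0.11, adjusted p = 1.81e-08) in WT and 1.45 (SE 0.11, adjusted p = 2.08e-08) in AdC3KO. Counts on its annotated pseudogene copies were at most 1.10% of its own. Eif4a3, a helicase of the exon junction complex, rose by 0.75 and 0.79. The cofactors that stimulate eIF4A rose less, Eif4b by 0.71 and 0.59 and Eif4h by 0.48 and 0.33 (WT first). Under library totals Eif4h lost its call in both genotypes and turned sign in AdC3KO, and Eif4b lost its call in AdC3KO. In AdC3KO the call of Eif4h was also lost under upper-quartile scaling and with the filter at 5 CPM.

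Of the eIF4G family, Eif4g2 rose most. It encodes DAP5, a relative of eIF4G without the eIF4E-binding part that serves alternative initiation. Its level was 481, 521 and 519 CPM in WT and 506, 521 and 544 CPM in AdC3KO at 30 °C, and 1632, 1487, 1494 and 1335 CPM in WT and 1489.9, 1566, 1480.2 and 1481 CPM in AdC3KO at 4 °C. All libraries at 4 °C were far above those at 30 °C, with log2 fold changes of 1.55 (SE 0.09, adjusted p = 1.22e-09) in WT and 1.52 (SE 0.09, adjusted p = 1.43e-09) in AdC3KO. The scaffolds that bind eIF4E rose less, Eif4g1 by 0.62 and 0.58 and Eif4g3 by 0.62 and 0.67. The call of Eif4g1 was lost in AdC3KO under library totals. Per kb of exon the level of Eif4g3 was 0.0728 ± 0.000344 of that of Eif4g1 in WT at 30 °C (SD, n = 3) and 0.0726 ± 0.00129 at 4 °C (SD, n = 4).

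Eif4e (ENSMUSG00000028156, a protein-coding gene at 138526179 to 138559696 of chromosome 3, plus strand) encodes the cap-binding protein, and its promoter stretches, printed above, lie inside the annotated span of the gene. Its level was 37.5, 46.1 and 43.6 CPM in WT and 44.8, 43.4 and 44.1 CPM in AdC3KO at 30 °C, and 106, 101, 94.2 and 81.6 CPM in WT and 93.4, 99.4, 88.8 and 108 CPM in AdC3KO at 4 °C. Every library at 4 °C exceeded every library at 30 °C, and the rise was 2.25-fold in WT, a log2 fold change of 1.17 (SE 0.10, adjusted p = 7.12e-08), and 2.21-fold in AdC3KO, at 1.14 (SE 0.10, adjusted p = 8.45e-08). Eif4e2, a cap-binding relative linked to repression, rose by 0.55 and 0.75, and its call in WT was lost under library totals. Eif4e3, a further relative, was not called, at -0.12 (SE 0.12, adjusted p = 0.387) in WT and -0.03 (SE 0.12, adjusted p = 0.815) in AdC3KO, and 14.8% of its exon bases overlap Gm20696. In WT it was called lower under upper-quartile scaling (-0.37, adjusted p = 0.0142 by edgeR), library totals (-0.48, adjusted p = 0.00102) and the filter at 5 CPM (-0.29, adjusted p = 0.0423), and in AdC3KO under library totals (-0.42, adjusted p = 0.00287).

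Of the 3 4E-BP genes, Eif4ebp1 and Eif4ebp2 were called lower in the cold and Eif4ebp3 was not called. Eif4ebp1 (ENSMUSG00000031490, a protein-coding gene at 27260329 to 27276674 of chromosome 8, plus strand) was 126, 147 and 111 CPM in WT and 119, 138 and 133 CPM in AdC3KO at 30 °C, and 78.0, 75.5, 72.0 and 77.6 CPM in WT and 76.0, 47.8, 68.7 and 78.8 CPM in AdC3KO at 4 °C. The lowest value was in the second AdC3KO library at 4 °C, and the temperatures did not overlap. Eif4ebp1 was 1.69-fold lower in WT, with a log2 fold change of -0.76 (SE 0.14, adjusted p = 0.000171), and 1.91-fold lower in AdC3KO, at -0.94 (SE 0.14, adjusted p = 1.95e-05).

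Eif4ebp2 (ENSMUSG00000020091, a protein-coding gene at 61428491 to 61452661 of chromosome 10, minus strand) was 221, 209.9 and 240.2 CPM in WT and 258, 235 and 203 CPM in AdC3KO at 30 °C, and 122, 122, 147 and 117 CPM in WT and 120.4, 123, 99.4 and 124 CPM in AdC3KO at 4 °C. Every library at 4 °C was lower than every library at 30 °C. Eif4ebp2 was 1.76-fold lower in WT, with a log2 fold change of -0.82 (SE 0.11, adjusted p = 6.5e-06), and 1.99-fold lower in AdC3KO, at -0.99 (SE 0.11, adjusted p = 7.4e-07). Both calls held under all 24 alternatives in each genotype.

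Eif4ebp3, the third inhibitor gene, was scarce. It was 0.745, 0.439 and 0.598 CPM in WT and 0.458, 1.26 and 0.849 CPM in AdC3KO at 30 °C, and 0.530, 0.576, 0.522 and 0.326 CPM in WT and 0.373, 0.387, 0.733 and 0.337 CPM in AdC3KO at 4 °C, from 8 to 34 counts a library. The temperatures overlapped, and the log2 fold changes were -0.29 (SE 0.43, adjusted p = 0.585) in WT and -0.91 (SE 0.42, adjusted p = 0.0696) in AdC3KO. Leaving out 1 library moved the value between -0.46 and -0.10 in WT and between -1.21 and -0.51 in AdC3KO, where it was called lower without AdC3KO library 1 at 30 °C (-1.21, adjusted p = 0.0263 by edgeR) or library 3 at 4 °C (-1.20, adjusted p = 0.0295). In AdC3KO it was also called lower under upper-quartile scaling (-1.14, adjusted p = 0.0256) and library totals (-1.31, adjusted p = 0.0114). Of its exon bases, 67.3% overlap AC115631.1, so its level is uncertain.

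The ratio of inhibitor to target transcripts was lower in the cold libraries. The summed level of the 3 4E-BP genes over that of Eif4e, both in CPM per kb of exon, was 15.5, 13.5 and 12.8 in WT and 13.3, 14.5 and 13.2 in AdC3KO at 30 °C, and 3.26, 3.35, 3.76 and 4.13 in WT and 3.60, 2.63, 3.35 and 3.21 in AdC3KO at 4 °C. All 8 ratios at 4 °C lay below all 6 at 30 °C, which follows from the separate levels of Eif4e, Eif4ebp1 and Eif4ebp2 given above. Scaling of the libraries does not enter a ratio within a library. The mean was 13.9 ± 1.42 (SD, n = 3) and 3.62 ± 0.399 (SD, n = 4) in WT, 3.85-fold lower, and 13.7 ± 0.753 and 3.20 ± 0.409 in AdC3KO, 4.28-fold lower. Eif4ebp1 made up 59.4 ± 5.03% of the sum in WT at 30 °C (SD, n = 3) and 60.5 ± 3.30% at 4 °C (SD, n = 4), and Eif4ebp2 most of the rest. These are transcript ratios, and protein and phosphorylation were not measured.

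**Figure D4:**
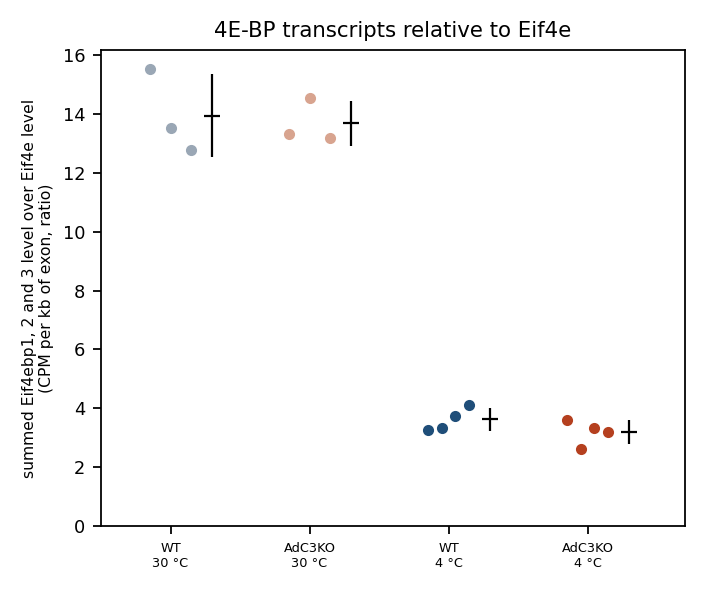
Summed Eif4ebp1, Eif4ebp2 and Eif4ebp3 level over the Eif4e level (y axis, ratio of CPM per kb of exon, from 0) in each library by group (x axis), with the mean and SD beside the points. The 6 libraries at 30 °C sit between 12.8 and 15.5 and the 8 at 4 °C between 2.63 and 4.13.

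Per length, Eif1 was the most abundant of the 38 transcripts at both temperatures in both genotypes, at 130.0 ± 16.7 CPM per kb in WT at 30 °C (SD, n = 3) and 315 ± 11.1 at 4 °C (SD, n = 4). Eif5a came next at 30 °C, at 97.4 ± 8.21, and was rank 4 at 4 °C in WT, at 129 ± 3.81 CPM per kb. Eif4ebp1 went from rank 3 of 38 in WT at 30 °C, at 58.3 ± 8.23 CPM per kb, to rank 16 at 4 °C, at 34.5 ± 1.25. At 30 °C it did not differ from its neighbour Eif4g1, at 58.1 ± 3.11, beyond their spread. Eif4a1 and Eif4g2, at 152 ± 22.4 and 146 ± 12.0 CPM per kb in WT at 4 °C, were next after Eif1 and did not differ from each other beyond their spread. Eif4ebp3 was the least abundant in every group. These ranks rest on the merged exon length, 2.377 kb for Eif5a and 2.196 kb for Eif4ebp1. Their longest transcripts measure 1.437 and 1.997 kb. Ranks were not computed with that other length, and the order can change with it.

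The genotype comparison addresses whether loss of Clstn3b alters these transcripts. None of the 38 was called between AdC3KO and WT at 30 °C by edgeR's quasi-likelihood test, where 0.0439% of all tested genes were called, and 0 of the 38 had an unadjusted p below 0.05. At 4 °C again none was called, where 0.0502% of all tested genes were called, and 1 of the 38 had an unadjusted p below 0.05. Such a p was found for 212 of all 15949 tested genes at 30 °C and for 765 at 4 °C. DESeq2 and limma-voom called none in either comparison. With so few genes called at all, these counts of 0 lie near the background.

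**Figure D5:**
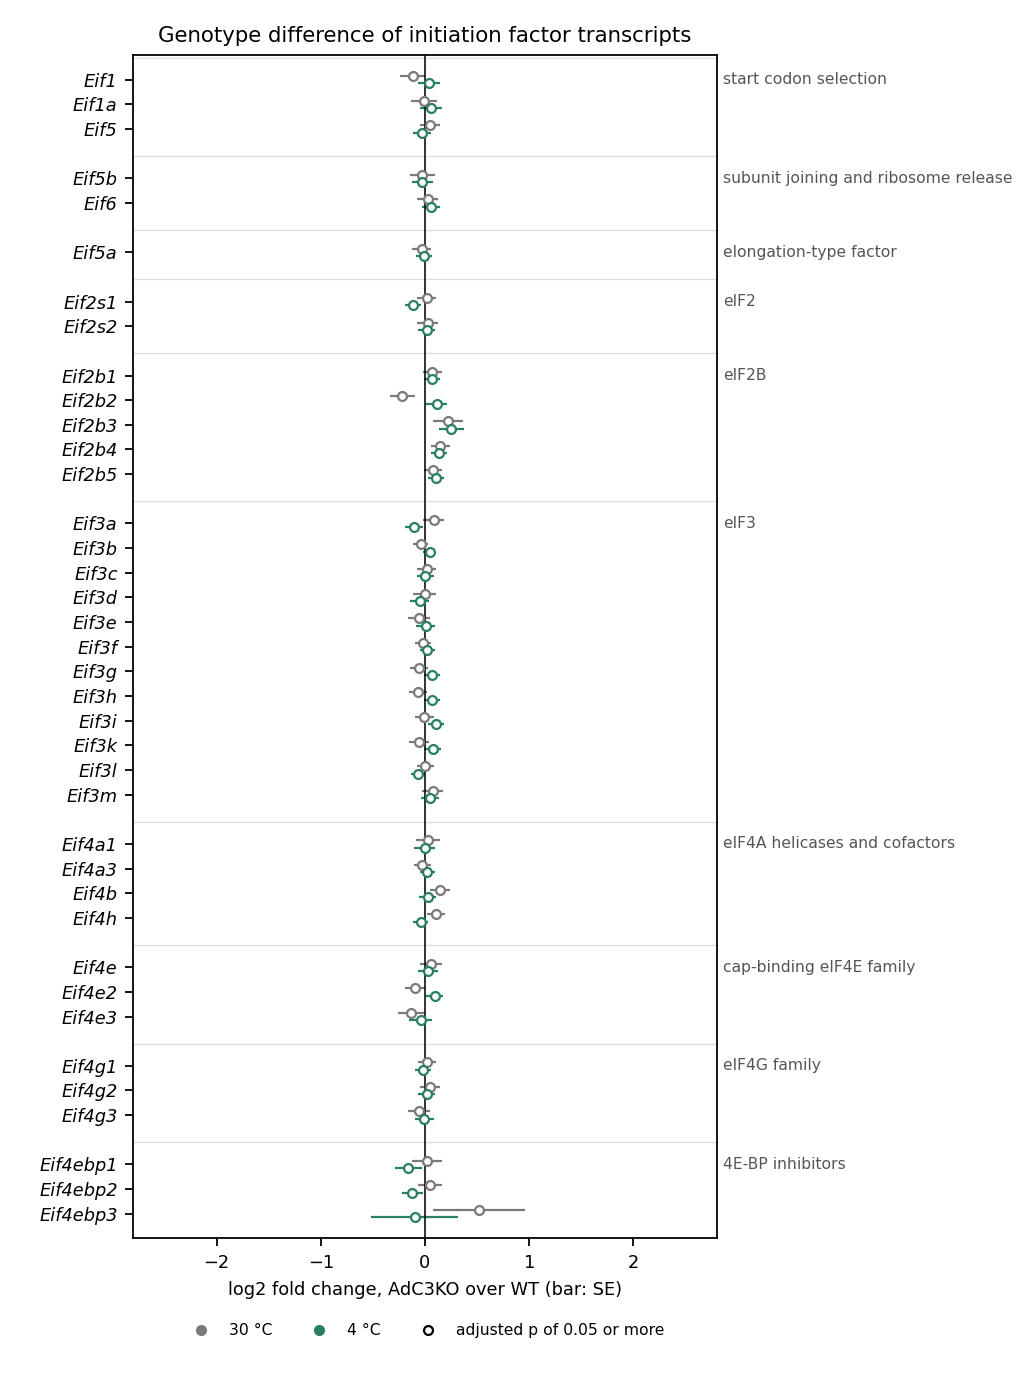
Log2 fold change of AdC3KO over WT (x axis, on a range like that of the cold response) of the 38 genes grouped by role (y axis), at 30 °C in grey and at 4 °C in green, with bars for the SE. All points are open, since no adjusted p was below 0.05, and apart from Eif4ebp3 they lie between -0.22 and 0.25.

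The 4 genes with the smallest unadjusted p at 30 °C were Eif2b2, Eif2b4, Eif2b3 and Eif4b, with log2 fold changes of -0.22, 0.15, 0.22 and 0.14. At 4 °C they were Eif2b3, Eif2b4, Eif2s1 and Eif2b5, at 0.25, 0.14, -0.12 and 0.11. Eif2b3 at 4 °C had an unadjusted p of 0.0493 and an adjusted p of 0.963 by edgeR. The 95% interval of the genotype difference stayed within 1.5-fold in either direction for 37 of the 38 genes at each temperature. The exception was Eif4ebp3, whose interval on the log2 scale ran from -0.41 to 1.45 at 30 °C and from -0.98 to 0.79 at 4 °C.

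The cold response did not differ detectably between the genotypes. In the genotype by temperature interaction 0 of the 38 genes were called and 0 had an unadjusted p below 0.05. Of all 15949 tested genes 0.00% were called by edgeR, 349 had an unadjusted p below 0.05, and DESeq2 and limma-voom called none. The smallest p of the 38 belonged to Eif2b2, with an interaction of 0.33 (SE 0.16, unadjusted p = 0.0543 by edgeR) on the log2 scale, followed by Eif4e2 at 0.19, Eif3a at -0.19 and Eif4h at -0.15. The 95% interval stayed within 1.5-fold for 35 of the 38, the exceptions being Eif2b2, Eif4ebp1 and Eif4ebp3. Across the 38 genes the cold response in WT and that in AdC3KO had a Pearson correlation of 0.98, from separate libraries, given here as a description because genes are not independent replicates. The median absolute difference between them was 0.07 and the largest 0.62, in Eif4ebp3.

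Eif4a2, the paralogue of Eif4a1 and not one of the 38, was called between the genotypes at both temperatures. It was 332, 369.6 and 379 CPM in WT and 534, 579 and 549 CPM in AdC3KO at 30 °C, and 688, 620.2, 594 and 679 CPM in WT and 1024, 955, 1056 and 911 CPM in AdC3KO at 4 °C. The genotypes did not overlap at either temperature. AdC3KO exceeded WT by a log2 fold change of 0.62 (SE 0.10, adjusted p = 0.0217) in the warm groups and of 0.61 (SE 0.08, adjusted p = 0.00446) in the cold groups, while the difference for Eif4a1 was 0.03 and -0.0033. Whether the 2 paralogues differ in this was not tested. At 30 °C the call was lost without any 1 of the 6 libraries of that temperature, at 0.57 to 0.66 with adjusted p of 0.0669 to 0.268. It was also lost with the replicate block (log2 fold change 0.62, adjusted p = 0.160), when only the compared groups were fitted (0.61, adjusted p = 0.0702) and without the libraries rich in macrophage transcripts (0.61, adjusted p = 0.0510). At 4 °C it was lost when only the compared groups were fitted (0.61, adjusted p = 0.0657) and without the 5 libraries richest in muscle transcripts (0.56). The fit without the 5 libraries richest in muscle transcripts keeps 1 AdC3KO library at 30 °C. There the log2 fold change at 30 °C was 0.64 and the call was lost. Eif4a2 overlaps Rfc4 on the other strand, and 13.3% of its exon bases lie in another gene. It lies at 23107444 to 23114136 of chromosome 16, and the adipocyte gene Adipoq at 23146536 to 23158028 of that chromosome. Whether the genotype difference of Eif4a2 comes from the loss of CLSTN3B or from its position was not tested.

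The rest of the translation machinery was read from a list of 44 further genes of initiation, its regulators, elongation and termination. At 4 °C 31 of the 44 were called higher and 5 lower in both genotypes, against 27.9% and 27.7% of all tested genes. Their median log2 fold change was 0.57 in WT and 0.59 in AdC3KO, and that of all tested genes was -0.03 and -0.06. Ppp1r15a, which brings a phosphatase to phosphorylated eIF2, rose by 3.37 and 3.34 on the log2 scale, and its constitutive relative Ppp1r15b by 1.61 and 1.64. Etf1, the release factor, rose by 2.22 and 2.13, and Eef1e1, a part of the multi-tRNA synthetase complex, went from 8.73 ± 1.40 CPM (SD, n = 3) to 24.7 ± 3.68 CPM (SD, n = 4) in WT and rose by 1.78 in AdC3KO. The 5 that fell were Eef2k, Pdcd4, Mknk1, Mknk2 and Eif2d. Eef2k, the kinase that inactivates the elongation factor eEF2, was 11.3 ± 0.629 CPM at 30 °C (SD, n = 3) and 2.05 ± 0.190 CPM at 4 °C (SD, n = 4) in WT, a log2 fold change of -2.46 (SE 0.16, adjusted p = 2.12e-09), and -2.37 in AdC3KO. Pdcd4, which blocks eIF4A, was 55.8 ± 4.81 and 15.6 ± 7.90 CPM in WT, at -1.83 (SE 0.30, adjusted p = 0.000190), and -1.92 in AdC3KO. Mknk2, a kinase of eIF4E, was at -0.75 and -1.14, and Eif2d at -0.38 and -0.36. Without the 5 libraries richest in muscle transcripts, Eif2d was at -0.44 in AdC3KO and lost its call. That fit keeps 1 AdC3KO library at 30 °C.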

How the data were processed

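RNA of brown adipose tissue from 14 libraries was analysed. The authors deposited raw counts per Ensembl gene, which they made with Trimmomatic, STAR on GRCm38/mm10 and HTSeq, per the series' design text and the submitters' processing notes. For tool versions, annotation release and strand setting, none is given in the sources used here. The 5 summary lines that name no gene were left out: reads outside genes made up 5.95% to 8.19% of a library and ambiguous reads 5.53% to 6.03%. Symbols came from the reference annotation by identifier (99.4% matched).

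Counts were fitted with edgeR 4.0.16 in R 4.3.3: filterByExpr by group (minimum count 10), TMM scaling (factors 0.822 to 1.21), robust quasi-likelihood F-tests on 1 model with 4 group means, and Benjamini-Hochberg adjustment at 0.05 over 15949 genes. Every adjusted p is from this fit unless another is named. Per-length levels divide CPM by the merged exon length. DESeq2 1.42.0, limma-voom 3.58.1, other scalings, other filters, the compared groups alone, a replicate block and leaving out each library were alternatives. The step was tested on simulated data.

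The members and lists were chosen with earlier results of these data known. The 38 members are named in the cold comparisons, with values per library for the 6 largest rises, the called falls, the 3 Eif4ebp genes and Eif4e, and the 4 smallest p where none was called. From the 44 further genes, up to 4 per direction are named. Same-numbered libraries did not deviate together (1 of 19 correlations above 0.1), so the numbers were not used as pairs in the main fit. Protein sequences were not used here.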

Additional observations from a re-analysis of the deposited data

Results flagged for a closer look

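In each group of 4 libraries the highest or lowest value was set against the other 3 by Dixon's ratio at its 95% critical value, and 11 of 76 comparisons passed. Independent normal values would give about 3.8, but genes of the same library are not independent. The ratio was not computed for the other tested genes, so the count is not a result particular to the 38. In WT at 4 °C, Eif2b1 was 36.7 CPM in library 1 against 33.7 to 33.9 in the others, Eif3g was 82.2 CPM in library 1 against 73.5 to 75.0, and Eif4ebp2 was 147 CPM in library 3 against 117 to 122. In AdC3KO at 4 °C, library 4 was highest for Eif6, at 65.7 CPM against 53.6 to 55.1, for Eif5a, at 329.7 CPM against 293 to 299, and for Eif4e2, at 82.3 CPM against 69.1 to 71.0. Library 2 was highest for Eif4a1, at 717 CPM against 639 to 639.6, and for Eif4g2, at 1566 CPM against 1480.2 to 1489.9. Library 1 was highest for Eif2s1, at 83.6 CPM against 75.6 to 75.9. Library 3 was lowest for Eif4ebp2, at 99.4 CPM against 120.4 to 124, and highest for Eif4ebp3, at 0.733 CPM against 0.337 to 0.387. None of these values crossed into the range of the other temperature except that of Eif4ebp3, whose temperatures overlapped already.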

How the results depend on the processing

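Of the 32 risen genes, 23 kept their call and direction in both genotypes under all 24 alternatives, as did both that fell. The other 9 were Eif5a, Eif2b1, Eif3h, Eif3i, Eif3k, Eif4b, Eif4h, Eif4e2 and Eif4g1. Members called lower in WT numbered 5 under upper-quartile scaling, 5 under library totals and 4 with the filter at 5 CPM, and in AdC3KO 4 under upper-quartile scaling and 6 under library totals, because Eif3f, Eif3l, Eif4e3 or Eif4ebp3 joined. In the same order, 40.2%, 44% and 36.4% of all tested genes were called lower in WT, and 41% and 46.4% in AdC3KO. Leaving out each library gave 32 higher and 2 lower in WT, and 32 higher and 2 to 3 lower in AdC3KO, where Eif4ebp3 was called without AdC3KO library 1 at 30 °C or library 3 at 4 °C. Of all tested genes, 27.5% to 30.2% were then called higher and 26.9% to 31.4% lower in WT. In AdC3KO these shares were 27.6% to 32.6% and 28.6% to 32.5%. Some log2 fold changes turned sign. Eif3f went to -0.21 (upper quartile), -0.32 (totals), -0.059 (no filter) and -0.13 (5 CPM) in WT, and to -0.15, -0.31, -0.0097 and -0.072 in AdC3KO. In AdC3KO under library totals Eif2b1 went to -0.033 and Eif4h to -0.065, and Eif4e3 ranged from -0.066 to 0.032 as single libraries were left out. The cause of these changes was not tested.

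With a replicate block the cold comparisons called 32 higher and 2 lower in each genotype and no member elsewhere, and no member's call changed. With that block 29.4% of all tested genes were called higher and 29.8% lower in WT, and 29.9% and 31.5% in AdC3KO. Same-numbered libraries correlated at -0.34 to 0.30 with a median of -0.05, and differently numbered ones at -0.29 to 0.54 with a median of 0.03. Pairing by number was not seen, which does not exclude it. The 4E-BP to Eif4e ratio with the longest transcript's length was 12.3 and 12.0 at 30 °C and 3.19 at 4 °C in WT. The highest to lowest eIF3 ratio with that length was 8.26 and 8.24 at 30 °C and 5.25 and 5.10 at 4 °C. Few libraries and 8 to 34 counts limit Eif4ebp3 most. The planned search of protein sequences was not run.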
